A study of Sus scrofa with 8 samples.

Results

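The neurotrophin receptors and ligands described here are 7 genes of the 25880 pig genes in the deposited count table: the receptors NGFR, NTRK2 and NTRK3, the ligands BDNF and NTF3, and the sortilin-family receptors SORT1 and SORCS2. They were taken by gene symbol, and each matched 1 Ensembl pig identifier. All 7 passed the filter on low counts, which kept 17175 genes. NGFR had been picked out because it was lower in knockout than in wild-type piglets, and the set around it was drawn up with the results of the same comparison known. The genotype values of these genes are therefore given as a description, with no p-value. The libraries are mRNA sequencing of newborn pig olfactory epithelium, dissected and snap frozen, from 4 CFTR knock-out piglets (numbers 6, 18, 20 and 21) and 4 wild-type piglets (numbers 5, 9, 12 and 23), 1 library per piglet. The knockouts lack a functional CFTR, the anion channel that is defective in cystic fibrosis, and no other allele or treatment is given in the labels. The series was collected to examine the molecular pathology of olfactory loss in cystic fibrosis.

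Neurotrophins are secreted growth factors made as precursors. After cleavage, BDNF binds chiefly the tyrosine kinase receptor TrkB, encoded by NTRK2, and NT-3, encoded by NTF3, binds chiefly TrkC, encoded by NTRK3. NGFR encodes p75, a death-domain receptor of the tumour necrosis factor receptor family that binds all mature neurotrophins and, together with sortilin (SORT1) or SORCS2, their uncleaved precursors. In the rodent olfactory system p75 is a classical marker of the ensheathing glia that surround olfactory axons.

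Library totals were 39915150 to 43253395 counts in knockout and 30836904 to 42281883 counts in wild-type piglets. CFTR itself was 6.84 ± 1.36 CPM (read counts scaled to library size) in knockout and 40.3 ± 10.9 CPM in wild-type piglets (SD, n = 4 each), with no overlap. Neuronal markers were abundant in every library: the 9 measured markers of mature olfactory neurons summed to 5130 to 6024 CPM in knockout and 3160 to 5093 CPM in wild-type piglets. Certain libraries stood apart. Knockout piglet 18 had 35590 CPM in 9 fibroblast and mesenchyme markers, against 1012 to 1815 CPM in the other knockouts and 1441 to 4497 CPM in wild-type piglets. Wild-type piglet 5 had the lowest mature neuron sum (3160 CPM) and the highest sums of 13 glial markers (666 CPM) and of 6 endothelial markers (407 CPM). The Y-linked genes EIF1AY and KDM5D had reads only in wild-type piglets 9 and 12 (1388 and 1640 reads), and all 4 knockouts had 0. In bulk tissue, fewer cells of a type and less RNA per cell cannot be told apart.

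NGFR (ENSSSCG00000017548, chromosome 12, 25699417 to 25720445, plus strand, build not stated) was lower in all 4 knockout piglets than in all 4 wild-type piglets. It had 700, 510, 896 and 656 reads in knockout piglets 6, 18, 20 and 21, against 1684, 1319, 1332 and 1619 reads in wild-type piglets 5, 9, 12 and 23. Scaled for depth, this was 15.9, 14.2, 20.4 and 15.5 CPM in the knockouts, in the same order, and 40.5, 41.7, 32.2 and 37.7 CPM in the wild-type piglets. The highest knockout, piglet 20, thus lay below the lowest wild type, piglet 12. The means were 16.5 ± 2.70 CPM in knockout and 38.0 ± 4.24 CPM in wild-type piglets (SD, n = 4 each). The log2 fold change was -1.20 ± 0.13 (SE, edgeR), a 2.30-fold lower level in the knockout. NGFR was the only one of the 7 genes whose groups did not overlap, where 5.81% of all genes tested did not overlap 3.36% with the knockout lower and 2.45% with it higher. Since NGFR was chosen from this contrast, nothing is read from that count.

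The NGFR difference was about the same size in each subset of libraries fitted. It was -1.24 on the log2 scale in the 6 libraries with no Y-linked read, -1.11 without knockout piglet 18 and wild-type piglet 5, and -1.32 to -1.14 when each library was left out in turn. The pooled SD of log2 CPM within the genotypes was 0.15 for SORCS2, 0.20 for NGFR, 0.26 for BDNF and SORT1 and 0.27 for NTF3. It was 0.61 for NTRK3 and 0.84 for NTRK2. Nothing is read from the NGFR value, because the gene was chosen from this contrast.

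**Figure D1:**
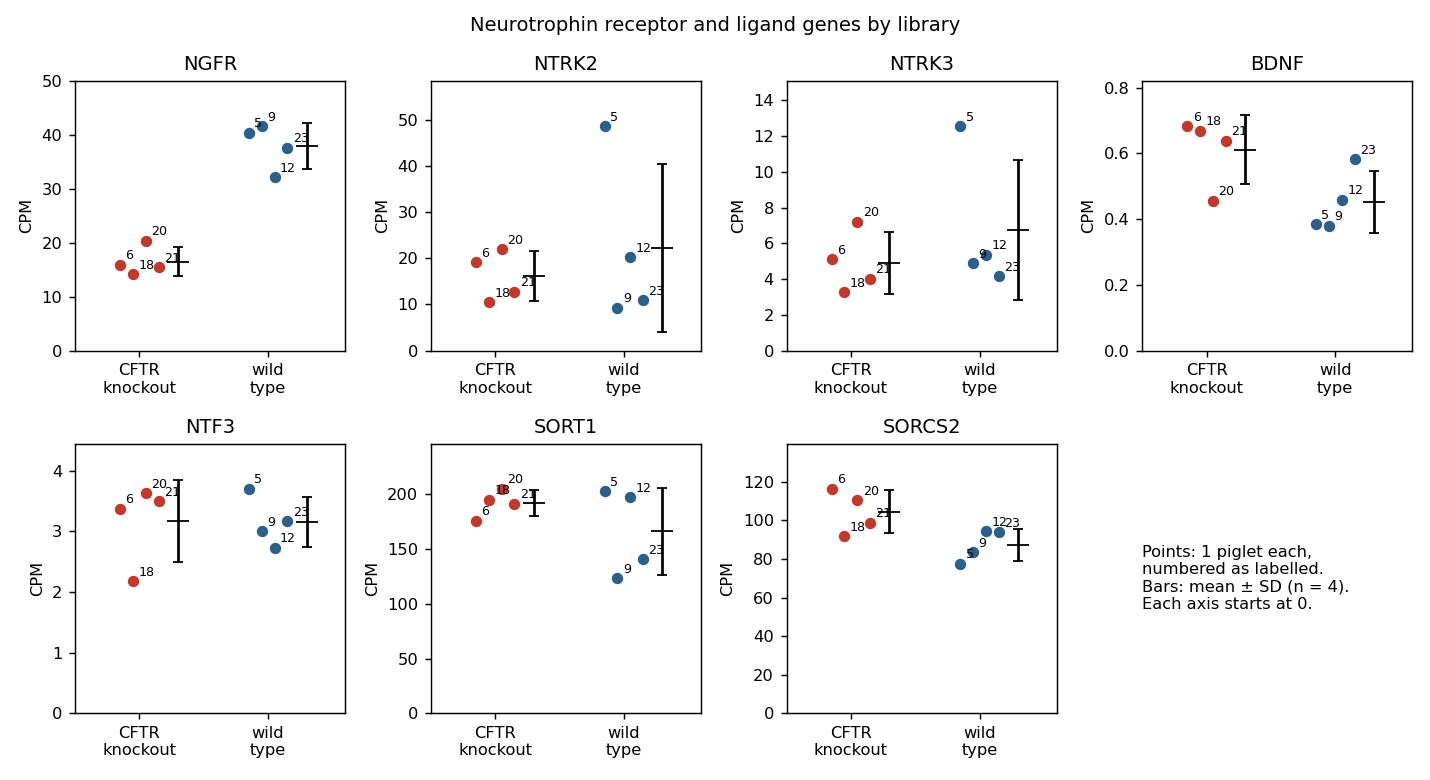
TMM-scaled CPM (y axis, each panel from 0) of the 7 genes in CFTR-knockout (left) and wild-type (right) piglets. Points are piglets with their numbers and bars are mean ± SD (n = 4). The NGFR groups are apart, with 14.2 to 20.4 CPM in knockout and 32.2 to 41.7 CPM in wild-type piglets, and the groups of the other 6 genes overlap.

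Glial markers were set beside NGFR, because p75 marks olfactory glia. Summed over 13 measured markers of olfactory ensheathing and Schwann glia, the level was 557 to 598 CPM in knockout and 475 to 666 CPM in wild-type piglets, so the knockout range lay inside the wild-type range. SOX10, the transcription factor that specifies these glia, was 14.5 ± 1.64 CPM in knockout and 16.6 ± 2.89 CPM in wild-type piglets (SD, n = 4 each). Of the 13 markers, 10 had a negative log2 fold change and none had an adjusted p under 0.05 by edgeR, with 2 at an unadjusted p under 0.05 and 0 called by DESeq2. Their median was -0.39, against 0.01 over all genes tested. The lowest of the 13 was FOXD3, at 1.37 to 2.31 CPM in knockout and 1.49 to 3.27 CPM in wild-type piglets. S100B, also a marker of these glia, was not analysed here.

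Expressed per single glial marker, NGFR was lower in knockout piglets on average for 12 of the 12 markers shown. The ratio of the knockout mean to the wild-type mean ran from 0.356 (per L1CAM, an adhesion molecule of axons and glia) to 0.685 (per FABP7, a lipid-binding protein of glia). Per SOX10, NGFR was 1.12, 0.842, 1.56 and 1.11 in knockout piglets 6, 18, 20 and 21, and 2.12, 3.30, 1.98 and 2.05 in wild-type piglets 5, 9, 12 and 23. These groups did not overlap. The groups stayed apart for 6 of the 12 markers (SOX10, ERBB3, FOXD3, MBP, FRZB and L1CAM) and overlapped for the other 6. Per the summed list, NGFR was 0.0289 ± 0.00547 in knockout and 0.0663 ± 0.0160 in wild-type piglets (SD, n = 4 each), again without overlap. These ratios use the NGFR values of the same contrast and carry no test. How far the amount of glia sets the NGFR level was not tested.

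**Figure D2:**
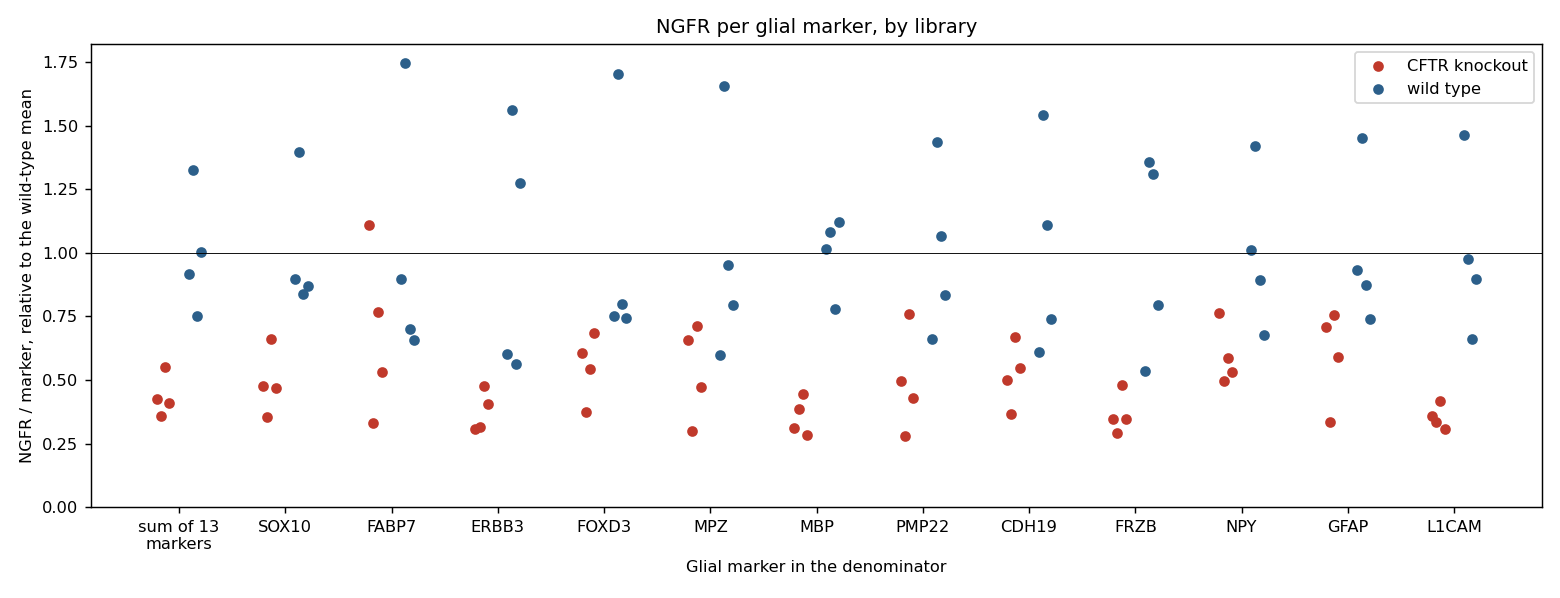
NGFR CPM divided by the CPM of the sum of 13 glial markers or of each of 12 markers (x axis), each relative to the wild-type mean of that ratio (y axis, from 0). Points are piglets, CFTR knockout left and wild type right. The knockout mean is below the wild-type mean for every marker, at 0.356 to 0.685 of it, and the groups overlap for 6 of 12.

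Markers of other cells of the epithelium and its vessels were also set beside NGFR. The 8 measured horizontal basal cell markers, for the reserve stem cells of the epithelium, summed to 286 to 348 CPM in knockout and 284 to 409 CPM in wild-type piglets, and KRT5 and KRT14 were not analysed here. Of these 8, 6 were negative in log2 fold change and the median was -0.14; by edgeR 0 had an unadjusted p under 0.05. KRT15, a basal keratin, was 1.77 ± 1.21 CPM in knockout and 5.21 ± 4.78 CPM in wild-type piglets (SD, n = 4 each), with overlap. The 8 pericyte and smooth muscle markers summed to 548 to 693 CPM in knockout and 537 to 863 CPM in wild-type piglets.

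For the dividing progenitors of the epithelium, 6 markers of globose basal cells and precursors were measured. Their sum did separate the genotypes in the same direction as NGFR. It was 250 to 266 CPM in knockout and 275 to 287 CPM in wild-type piglets. The median log2 fold change of the 6 markers was -0.10. PAX6, a transcription factor of these progenitors, was 47.6 ± 4.28 CPM in knockout and 62.1 ± 4.41 CPM in wild-type piglets (SD, n = 4 each), without overlap. The groups overlapped for every other marker of the 6. Of the 6, 4 had a negative log2 fold change, with NEUROG1 at -0.08, while NEUROD1 (0.03) and KIT (0.33) were positive. The edgeR adjusted p of PAX6 was 0.326, so that it did not pass, and DESeq2 called it. The part of these cells in the NGFR level was not tested.

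The kinase receptors NTRK2 and NTRK3 showed a different pattern, with 1 wild-type library far above the rest and genotypes that overlapped. NTRK2 (ENSSSCG00000010959, chromosome 10, 30032176 to 30429882, minus strand) had 19.1, 10.5, 22.0 and 12.8 CPM in knockout piglets 6, 18, 20 and 21, against 48.6, 9.33, 20.2 and 10.9 CPM in wild-type piglets 5, 9, 12 and 23. Wild-type piglet 5 had the highest value, and wild-type piglet 9 the lowest, 5.21-fold apart. The knockout range lay within the wild-type range.

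NTRK3 (ENSSSCG00000005106, chromosome 1, 191535889 to 191926804, plus strand) had 5.12, 3.26, 7.22 and 4.02 CPM in knockout piglets 6, 18, 20 and 21, against 12.6, 4.90, 5.37 and 4.16 CPM in wild-type piglets 5, 9, 12 and 23. Again wild-type piglet 5 was highest, and the other 7 libraries overlapped. Both receptors therefore had lower knockout means, at 16.1 ± 5.38 against 22.3 ± 18.2 CPM in wild type for NTRK2 and 4.91 ± 1.72 against 6.75 ± 3.91 CPM in wild type for NTRK3 (SD, n = 4 each). The log2 fold changes were -0.47 ± 0.50 for NTRK2 and -0.46 ± 0.39 for NTRK3 (SE, edgeR). Without wild-type piglet 5 they were 0.25 and 0.02. The wild-type means were then 13.5 ± 5.88 CPM for NTRK2 and 4.81 ± 0.607 CPM for NTRK3 (SD, n = 3), so the direction of both rests on that piglet. In the 6 libraries with no Y-linked read, which keep wild-type piglets 5 and 23 alone, the log2 fold changes were -0.88 for NTRK2 and -0.77 for NTRK3.

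Both NTRK genes encode kinase-bearing and truncated isoforms, which a count per gene does not separate. The glial sum was 666 CPM in wild-type piglet 5, where both receptors were highest, and 475 CPM in wild-type piglet 9, where NTRK2 was lowest. In the knockouts the glial sums lay close together, at 557 to 598 CPM. The highest was in piglet 18, which had the lowest NTRK2 and NTRK3 of the knockouts. The lowest was in piglet 20, which had the highest NTRK2 and NTRK3 of the knockouts. Sums this close do not order the knockouts by their glia, and nothing is read from that order. The endothelial sum was 407 CPM in wild-type piglet 5 and 192 to 300 CPM in the other 7. The part of these cell types in the receptor levels was not tested.

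The ligands were the rarest of the 7 transcripts. BDNF (ENSSSCG00000013333, chromosome 2, 32623268 to 32679129, plus strand) had 30, 24, 20 and 27 reads in knockout piglets 6, 18, 20 and 21, against 16, 12, 19 and 25 reads in wild-type piglets 5, 9, 12 and 23. That was 0.611 ± 0.106 CPM in knockout and 0.451 ± 0.0942 CPM in wild-type piglets (SD, n = 4 each). The groups overlapped, since knockout piglet 20 lay below wild-type piglets 12 and 23. With so few reads, counting error alone was 18.3% of the value at the highest count and 28.9% at the lowest. The log2 fold change was 0.43 ± 0.28 (SE, edgeR), and this depth does not resolve a difference of that size.

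NTF3 (ENSSSCG00000033544, chromosome 5, 65049262 to 65121808, minus strand) had 3.37, 2.17, 3.62 and 3.50 CPM in knockout piglets 6, 18, 20 and 21, against 3.70, 3.01, 2.73 and 3.16 CPM in wild-type piglets 5, 9, 12 and 23. Knockout piglet 18 was the lowest library and wild-type piglet 5 the highest, and the groups overlapped. The means were 3.17 ± 0.670 CPM in knockout and 3.15 ± 0.408 CPM in wild-type piglets (SD, n = 4 each), with a log2 fold change of 0.01 ± 0.22 (SE, edgeR).

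The sortilin-family receptors were the most abundant of the 7 and had means slightly higher in knockout piglets. SORT1 (ENSSSCG00000006831, chromosome 4, 110720947 to 110790109, plus strand), which also sorts cargo from the Golgi to lysosomes, had 176, 195, 205 and 191 CPM in knockout piglets 6, 18, 20 and 21, against 203, 123, 197 and 141 CPM in wild-type piglets 5, 9, 12 and 23. The knockouts were close together, whereas wild-type piglets 9 and 23 lay below all other libraries. The log2 fold change was 0.21 ± 0.16 (SE, edgeR). An exon of SORT1 overlaps one of the proteasome gene PSMA5 on the same strand, so reads there may have been left uncounted or counted for either gene.

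SORCS2 (ENSSSCG00000037539, chromosome 8, 3206904 to 3714642, minus strand), a receptor of neuronal growth cones, had 116, 91.7, 110 and 98.8 CPM in knockout piglets 6, 18, 20 and 21, against 77.5, 83.6, 94.4 and 93.7 CPM in wild-type piglets 5, 9, 12 and 23. Of the knockouts, 3 lay above every wild-type piglet, and knockout piglet 18 lay below wild-type piglets 12 and 23. The means were 104 ± 11.1 CPM in knockout and 87.3 ± 8.19 CPM in wild-type piglets (SD, n = 4 each). The log2 fold change was 0.26 ± 0.10 (SE, edgeR). It was 0.20 to 0.31 in all 17 alternative fits.

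The order of the genes by level was the same on average in both genotypes and did not enter the choice of the genes. As TPM, a level that also divides by gene length, the means over all 8 libraries were 85.3 ± 15.9 TPM for SORT1, 48.8 ± 8.59 TPM for SORCS2, 22.6 ± 10.4 TPM for NGFR, 5.45 ± 3.83 TPM for NTRK2, 3.36 ± 1.83 TPM for NTRK3, 2.07 ± 0.439 TPM for NTF3 and 0.573 ± 0.127 TPM for BDNF (SD, n = 8). By mean TPM, SORT1 stood at percentile 88.3 of the genes tested, NGFR at percentile 56.8 and BDNF at percentile 3.85.

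Each gene was compared with the next in that order by its ratio within a library. The upper gene was higher in 8 of 8 libraries for 5 of the 6 neighbouring pairs, and NTRK2 exceeded NTRK3 in 7 of 8. NTRK2 over NTRK3 had a mean log2 ratio of 0.61 ± 0.34 (SD, n = 8), with the exception in wild-type piglet 9 at -0.10. The pairs were formed by ranking the same 8 libraries, so these counts describe the order and carry no p-value.

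The steps differed in size. SORT1 was 1.74-fold above SORCS2, NGFR was 4.43-fold above NTRK2, and NTF3 was 3.59-fold above BDNF (geometric means over libraries). NTRK3 over NTF3 had a mean log2 ratio of 0.58 ± 0.48 (SD, n = 8), and in knockout piglet 21 the 2 genes were level, at 2.24 TPM for NTRK3 and 2.23 TPM for NTF3. Taken over libraries and not within them, the ranges of NTRK2, NTRK3 and NTF3 overlap. So do those of SORT1 and SORCS2, and those of NGFR and NTRK2. SORCS2 over NGFR had a mean log2 ratio of 1.97 in the knockout libraries alone and 0.51 in the wild-type libraries alone, which restates the NGFR difference.

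**Figure D3:**
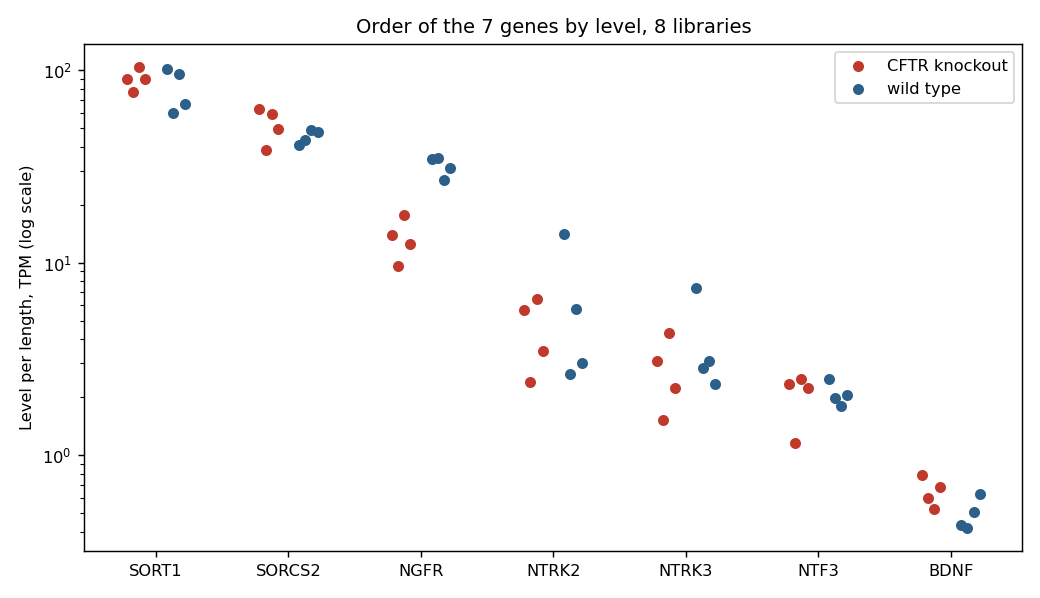
Levels per length of the 7 genes in order of mean level (TPM, log scale), with CFTR-knockout piglets left and wild-type piglets right for each gene. SORT1 is at the top with a mean of 85.3 TPM and BDNF at the bottom with 0.573 TPM. Between libraries NTRK2, NTRK3 and NTF3 overlap, as do SORT1 with SORCS2 and NGFR with NTRK2.

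The genes differed in how they varied over the 8 libraries. The SD of log2 CPM was 0.79 for NTRK2, 0.67 for NGFR and 0.60 for NTRK3, but 0.32 for BDNF, 0.27 for SORT1, 0.25 for NTF3 and 0.19 for SORCS2, against a median of 0.25 over all genes tested. Profiles were compared as the root-mean-square (RMS) difference between log2 CPM values centred on each gene's own mean, over 8 libraries. NTRK2 and NTRK3 differed by 0.32 and NGFR and NTRK2 by 0.86. A small RMS difference between weakly varying genes, such as BDNF and SORCS2 (0.24), says little.

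Of 12219 candidates (named genes averaging 1 CPM or more), those closest to NGFR were SNORD79, SSMEM1, LRRN3, PKMYT1, TRIM50, MCM3, RELT and DERL3, at RMS differences of 0.22 to 0.30 on the log2 scale, where the median gene was at 0.66. LRRN3, a leucine-rich repeat membrane protein of neurons, was 7.04 ± 0.995 CPM in knockout and 18.6 ± 3.76 CPM in wild-type piglets (SD, n = 4 each). MCM3, a subunit of the replicative helicase, was 14.9 ± 0.980 CPM in knockout and 27.0 ± 7.15 CPM in wild-type piglets (SD, n = 4 each). RELT, like NGFR a member of the tumour necrosis factor receptor family, was 1.61 ± 0.128 CPM in knockout and 2.90 ± 0.797 CPM in wild-type piglets (SD, n = 4 each).

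In all 8 of these genes the groups did not overlap, which follows from choosing them by likeness to NGFR. None is among the 13 glial markers measured, which are so few of the 12219 candidates that nothing is read from their absence. SNORD79, a small nucleolar RNA, is counted unreliably in an mRNA library.

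For NTRK2 the 3 closest profiles were those of CYSLTR2, a leukotriene receptor, EPHB6, an ephrin receptor without kinase activity, and ABI3BP, an extracellular matrix protein, at 0.20 to 0.29. For NTRK3 they were C6orf132, FLT4, the receptor for lymphatic growth factors, and EPHB6, at 0.14 to 0.21. The median genes were at 0.77 and 0.59. ABI3BP was 31.0 to 64.6 CPM in knockout and 35.3 to 142 CPM in wild-type piglets. FLT4 was 2.01 to 5.79 CPM in knockout and 2.79 to 10.1 CPM in wild-type piglets.

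**Figure D4:**
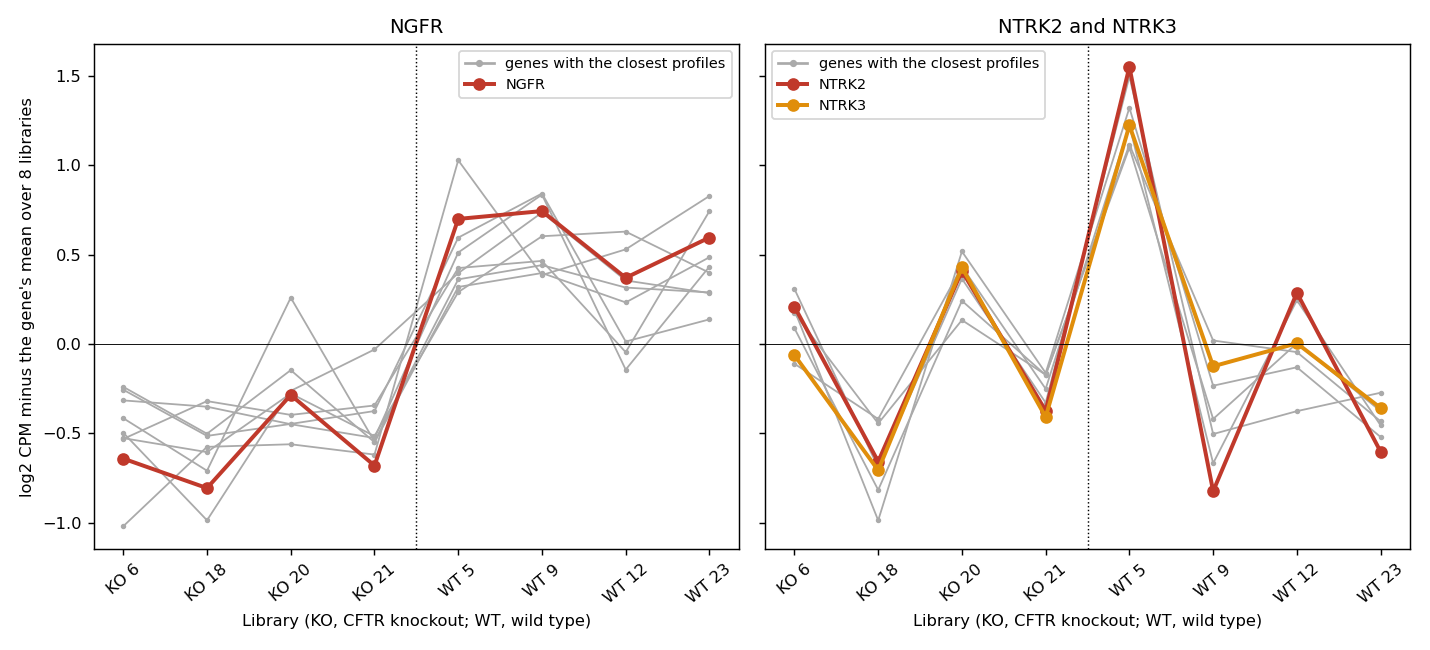
Log2 CPM minus each gene's mean over the 8 libraries (y axis) for NGFR with its 8 closest genes (left panel) and for NTRK2 and NTRK3 with theirs (right panel). Libraries run along the x axis, CFTR knockout left of the dotted line and wild type right of it, and lines only join the values of 1 gene. NGFR is below its mean in all 4 knockouts and above it in all 4 wild-type piglets, whereas NTRK2 and NTRK3 peak in wild-type piglet 5.

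The rest of the neurotrophin pathway was read from a list of 75 further genes, of which 73 were matched to an identifier and 72 were tested. By edgeR, 0 of 72 had an adjusted p under 0.05 over all genes, where 0.00582% of all genes tested (CFTR alone) did. DESeq2 called 0 of these genes too, against 1.37% of all genes, and limma with sample quality weights called 0. At an unadjusted edgeR p under 0.05 there were 7, against 11.2% of all genes tested. Of the 72, 38 had a positive and 34 a negative log2 fold change, and their median was 0.014, against 0.0098 for all genes tested.

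Among the remaining ligands, NTF4, another TrkB ligand, was scarce, at 1.94 ± 0.572 CPM in knockout and 2.14 ± 0.511 CPM in wild-type piglets (SD, n = 4 each).

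Of the 8 other receptors and co-receptors tested, 7 were positive and 1 was negative in log2 fold change. Over all genes tested, 48.4% were negative. The median of the 8 was 0.28, and none had an adjusted p under 0.05 by edgeR. LINGO1, a partner of p75 in the Nogo receptor complex, was 77.6 ± 4.24 CPM in knockout and 56.5 ± 14.0 CPM in wild-type piglets (SD, n = 4 each), or 0.46 ± 0.17 as a log2 fold change (SE, adjusted p = 0.409 by edgeR). RTN4RL1, a homologue of the Nogo receptor, stood at 0.44 ± 0.17 (SE, adjusted p = 0.418 by edgeR). The groups did not overlap for LINGO1 and for KIDINS220, a scaffold of Trk receptors and p75. Over the 72 genes 3 did not overlap (4.17%, against 5.81% of all genes tested). The sum of the 9 measured markers of mature olfactory neurons was likewise higher in every knockout than in every wild-type piglet. The lowest knockout sum was 5130 CPM and the highest wild-type sum 5093 CPM. By single marker, only CNGA2 had groups that did not overlap. The part of these neurons in the receptor and co-receptor values was not tested.

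Among p75 adaptors, 4 of 8 were positive and the median was -0.01. ARHGDIA, a dissociation inhibitor of small GTPases that p75 displaces, was 170 ± 12.9 CPM in knockout and 221 ± 36.7 CPM in wild-type piglets (SD, n = 4 each), without overlap, or -0.38 ± 0.12 as a log2 fold change (SE, adjusted p = 0.380 by edgeR). RHOA, such a small GTPase, stood at -0.18 ± 0.10 on that scale (SE, adjusted p = 0.502 by edgeR).

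Precursor processing genes had a median log2 fold change of 0.11, positive in 6 of 10. FURIN, the Golgi protease that cleaves neurotrophin precursors, was 141 ± 7.14 CPM in knockout and 123 ± 18.9 CPM in wild-type piglets (SD, n = 4 each), and PCSK6, a related protease, was 7.69 ± 4.42 CPM in knockout and 4.40 ± 2.19 CPM in wild-type piglets (SD, n = 4 each). Genes that shed receptors or cut them in the membrane had a median of 0.16, positive in 4 of 7. Among them ADAM17, the main p75 sheddase, had a log2 fold change of -0.18 ± 0.09 and APH1A, a gamma-secretase subunit, of 0.21 ± 0.10 (SE, edgeR adjusted p = 0.463 and 0.459).

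Trk adaptors and signalling genes had a median of 0.06, positive in 16 of 26. BRAF, a kinase that activates the MAP kinase cascade, had a log2 fold change of 0.33 ± 0.11 and SOS1, the exchange factor that loads Ras, of 0.18 ± 0.08 (SE, edgeR adjusted p = 0.384 and 0.448). Genes that neurotrophins induce had a median of -0.29, with 10 of 11 negative where 48.4% of all genes tested were. FOS, an immediate early transcription factor, was 13.9 ± 6.65 CPM in knockout and 23.1 ± 3.31 CPM in wild-type piglets (SD, n = 4 each), or -0.74 ± 0.29 as a log2 fold change (SE, adjusted p = 0.419 by edgeR). NR4A1, a nuclear receptor of the same response, stood at -0.47 ± 0.25 (SE, adjusted p = 0.482 by edgeR). Several of these genes also respond to the handling of tissue, and the list was not chosen independently of earlier results.

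**Figure D5:**
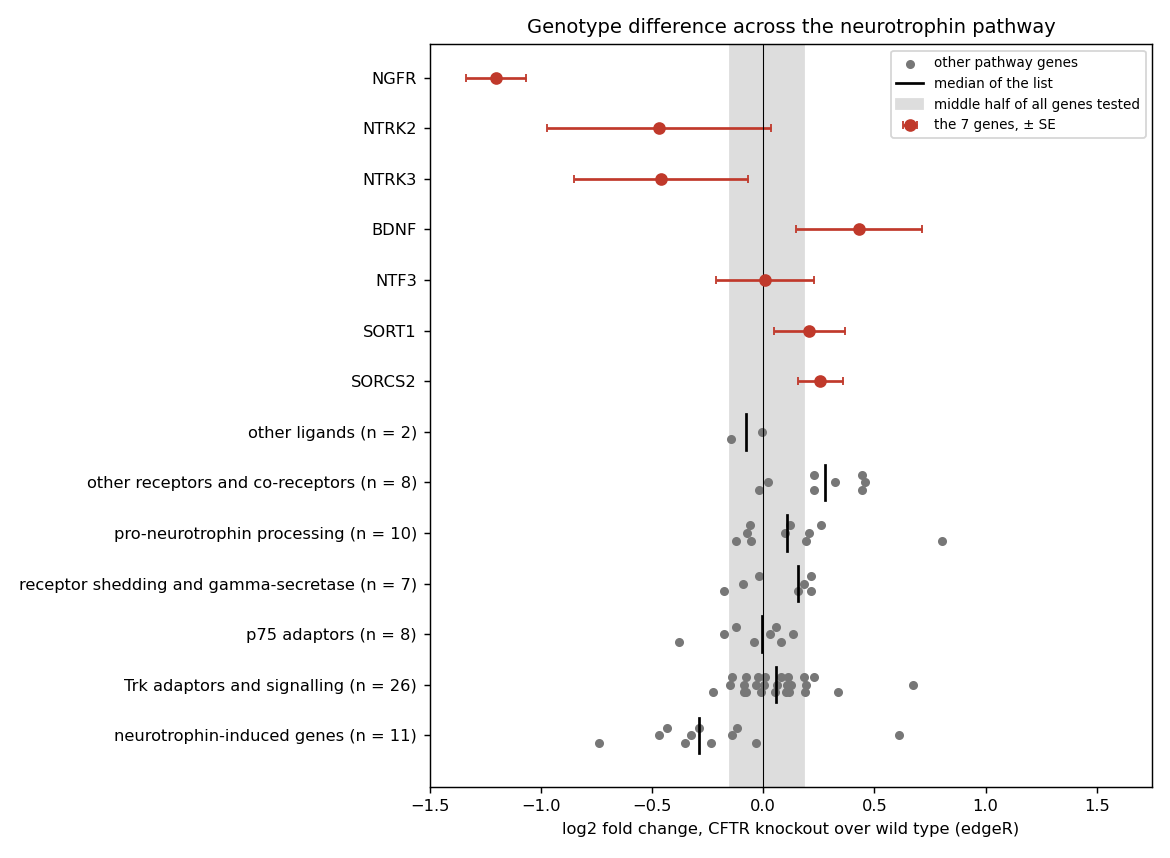
EdgeR log2 fold change of CFTR knockout over wild type (x axis) for the 7 genes (red, ± SE) and for each list of other pathway genes (grey points, black line at the list median), with the middle 50% of all genes tested shaded. NGFR, chosen from this contrast, stands at -1.20, farther from 0 than any other gene drawn, and nothing is read from that rank. The induced genes have a median of -0.29.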

How the data were processed

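The deposited values are whole read counts for 8 libraries, not normalized, and per the file headers the table has the columns of featureCounts. The tools in the submitters' processing notes include featureCounts (Subread 1.5.0-p3) and STAR 2.4.0, but their roles are not stated. Genome build and strand setting are not given in the sources used here. All 7 genes overlap the gene of the same symbol in Sscrofa11.1.

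Only the 25880 pig identifiers entered library sizes, and they took at least 99.9982% of the reads of each library. Genotypes were compared by edgeR 4.0.16 (quasi-likelihood test, R 4.3.3, TMM, default filter, genotype as factor), with Benjamini-Hochberg adjustment over 17175 genes at 0.05. SE came from the F statistic. CPM is TMM-scaled, log2 CPM has a prior count of 2, and TPM used the table's exonic lengths. Each library is a separate piglet, and litter is not in the labels. On simulated data for knockout against wild type (17024 genes), edgeR called 30% of genes changed 1.5-fold, 68% at 2-fold and 96% at 4-fold.

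Symbols came from a table of gene names. SHC2 and the markers CNGB1, STOML3, THY1 and SP7 were named by position in RefSeq (at least 50% overlap). The members and lists were chosen with earlier results of these data known. Named genes were the members, the 2 genes with the smallest p per pathway list and the closest profiles (8 for NGFR, 3 for other members with an SD over 0.5). Marker genes and KIDINS220 were named after their values were seen. Some items the rules would name are not reported here. The planned sign-flip test of the order of levels is not reported, because the order came from the same libraries. Alternatives were other normalizations, filters, DESeq2 1.42.0, limma 3.58.1 and subsets of libraries.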

Additional observations from a re-analysis of the deposited data

Results flagged for a closer look

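NTRK3 in wild-type piglet 5 was 12.6 CPM, against 4.16 to 5.37 CPM in the other 3 wild-type piglets, so that its gap to the next library made up most of the range of the group. It was the only value so far from its group among the 14 checked (7 genes in 2 genotypes), and since chance flags about 1 in 20 groups, 1 such value among 14 is near what chance gives. NTRK2 was highest in the same library, at 48.6 CPM.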

How the results depend on the processing

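NGFR kept its direction in 17 of 17 alternatives (log2 fold change -1.32 to -1.11), and the changes of BDNF, NTF3, SORT1 and SORCS2 moved by less than the spread between piglets. NTF3, near 0, ranged from -0.12 to 0.23. BDNF could not be fitted with a filter at 1 CPM, which removes it. Without knockout piglet 18 and wild-type piglet 5, NTRK2 moved to 0.41 and NTRK3 to 0.18. NTRK2 was also positive with sample quality weights (0.21), while in the libraries with no Y-linked read NTRK2 was at -0.88 and NTRK3 at -0.77. The number of genes called in all was 1 in the fit described, 224 with DESeq2, 11 with limma and sample quality weights, 2 without knockout piglet 18 and wild-type piglet 5, and 0 by edgeR in the libraries with no Y-linked read (2100 at an unadjusted p under 0.05). With 1 library left out it was 0 to 16, namely 16 when wild-type piglet 12 was omitted, 2 when wild-type piglet 5, 9 or 23 was, and 0 by edgeR when knockout piglet 6 or 20 was (1357 and 1669 at an unadjusted p under 0.05). The count of pathway genes called was 0 in all 17 alternatives, by edgeR, DESeq2 and limma, with 2 to 17 at an unadjusted p under 0.05. Each neighbouring pair in the order of levels kept its direction on average with each library left out. No paired analysis was possible because the genotypes share no piglet number. Depth limits BDNF most, at 12 to 30 reads per library.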
